A study of Mus musculus with 32 samples.

Results

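Genes of the visceral endoderm and of the yolk sac endoderm were followed in WT and Commd10Null mouse embryos of 3 stages, E8.5, E9.5 and also E10.5. The set held 33 of the 55414 gene identifiers of the count table. Its members were chosen by name, as genes known for these tissues, but with earlier results of these data known. All 33 were found by their Ensembl identifiers. Libraries were made from 10 WT and 3 Commd10Null samples of E8.5. There were 9 WT and 3 Commd10Null samples of E9.5, and 4 WT and 3 Commd10Null samples of E10.5. Commd10Null embryos carried, on both copies of Commd10, the Vav1-iCre transgene in an intron of the gene (line B6.Cg-Commd10Tg(Vav1-icre)A2Kio/J), and WT embryos came from the same crosses of heterozygous parents. Vav1-iCre is a Cre recombinase driven by regulatory DNA of Vav1, a gene of blood cells. Embryos were freed from their yolk sacs before RNA extraction. The sources used here do not say how much yolk sac tissue stayed with a sample, nor whether a library holds RNA of 1 embryo or of several. The p-values therefore measure the spread between these libraries only.

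The visceral endoderm is the epithelium that covers the early embryo, and it becomes the outer, absorptive layer of the visceral yolk sac. Before the placenta works, this epithelium takes up maternal proteins through endocytic receptors, packs lipids into lipoproteins, and secretes carrier and coagulation proteins that the liver makes later. Some of its cells also mix into the embryonic gut. The 33 members were read in 7 groups by role, which were 6 secreted carriers and inhibitors, 8 apolipoproteins and lipoprotein assembly genes, 5 coagulation factors, 5 endocytic receptor genes, 5 transporter and brush border genes, 3 transcription factors and the signalling antagonist Cer1.

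Libraries held 7025190 to 9069000 counts in all, with a median of 7971610, and each count is 1 tag from the 3′ end of a transcript. Levels are given as CPM, which are TMM-scaled shares of a library's counts set over all 32 libraries together, so that they can be set side by side across stages. Commd10 itself gave more tags in Commd10Null than in WT libraries, at 58.6 to 93.9 against 36.2 to 55.6 CPM. The transgene lies upstream of the 3′ end that the kit captures, so this count does not check the genotype labels. A single identifier with no gene symbol held 2.98 to 8.83% of the counts in WT libraries of E9.5 and E10.5 and 15.0 to 22.8% in all other groups. Libraries that stood apart in the members were Commd10Null E9.5 replicate 3, WT E10.5 replicate 1 and WT E9.5 replicate 8, and counts of calls that rest on them are given with and without them. Mitochondrial genes held 1.22 to 4.29% of the counts.

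The members together were high at E8.5 in both genotypes, low in WT embryos from E9.5 on, and still high in Commd10Null embryos at E9.5. Their summed level was 3198 ± 1877 CPM (SD, n = 10) in WT E8.5 and 7946 ± 1512 CPM (SD, n = 3) in Commd10Null E8.5 libraries. WT libraries of E9.5 held 250.1 ± 54.7 CPM (SD, n = 9), and the 3 Commd10Null libraries of that stage held 1101, 1550 and 9591 CPM. At E10.5 the summed level was 1824, 265, 265 and 262 CPM in the 4 WT libraries and 327, 334 and 455 CPM in the Commd10Null libraries. The groups did not overlap at E9.5, while at E8.5 the highest WT library, at 6735 CPM, lay above the lowest Commd10Null library, at 6204 CPM. In a library of whole embryos, fewer cells of a type and less RNA per cell cannot be told apart.

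**Figure D1:**
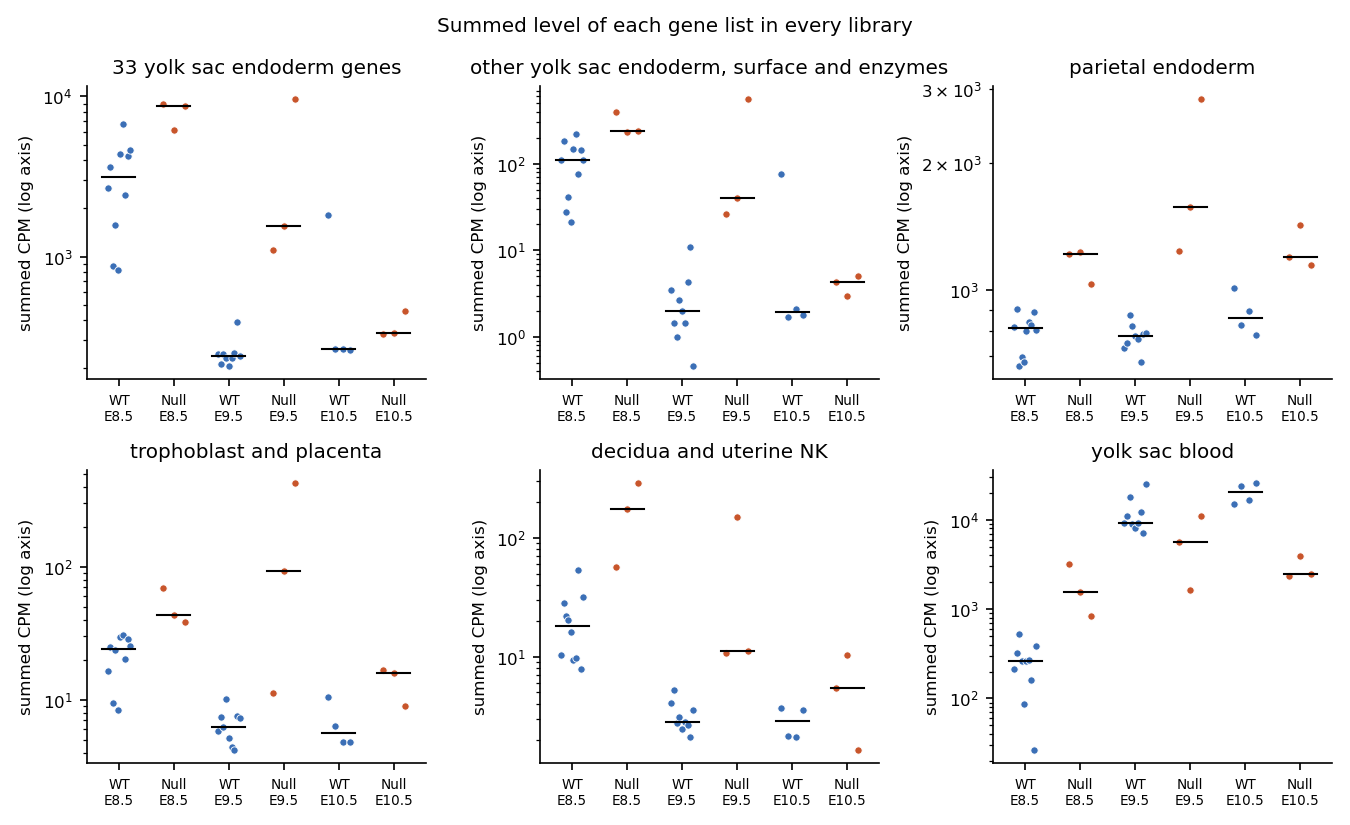
Summed CPM (log axis) of the 33 members and of 5 lists of markers of neighbouring tissues in each of the 32 libraries, by genotype and stage, with 1 point per library (spread sideways in no order) and a bar at the group median. The members lie between 207 and 390 CPM in WT E9.5 libraries and between 1101 and 9591 CPM in Commd10Null E9.5 libraries, and WT E10.5 replicate 1 stands at 1824 CPM above the other 3 libraries of its group.

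At E8.5, the earliest stage collected, the members were compared between Commd10Null and WT embryos, and those that passed the test were all higher in Commd10Null embryos. Of 32 members tested, 12 were higher in Commd10Null embryos as DEGs, that is with an adjusted p of 0.05 or less and a log2 fold change of at least 1, and 0 were lower. Over all 13799 genes tested, 3.22% were DEGs higher and 1.93% DEGs lower. The median log2 fold change was 1.37 over the members and -0.02 over all genes. All 32 values were above 0, so 0 members were lower at any threshold of edgeR, and 0 with DESeq2. Every Commd10Null library lay above every WT library in 13 members, beside 5.74% of all genes. The remaining member, Apoc2, an activator of lipoprotein lipase, had 0 counts in all 32 libraries. Its gene lies on the minus strand of chromosome 7 from 19671579 to 19677941 (GRCm38) and overlaps the annotated gene Gm44805, which also had 0 counts, so how its tags were assigned is open and its level was not read.

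The transcription factor genes and the genes of the absorptive surface held 7 of the 12. Hnf4a, a nuclear receptor that drives endoderm and liver genes, was at 119, 72.0 and 71.4 CPM in Commd10Null and at 4.47 to 55.4 CPM (median 25.9) in WT libraries. The groups did not overlap, and the log2 fold change was 1.72 (SE 0.49, edgeR adjusted p = 0.0273). Foxa3, a forkhead factor of the endoderm, was at 17.4, 16.8 and 23.5 CPM against 3.19 to 12.4 CPM (median 6.69), a log2 fold change of 1.45 (SE 0.33, edgeR adjusted p = 0.0111). Amn, the membrane anchor of the cubilin receptor, was at 400.3, 267 and 319 CPM against 17.7 to 204 CPM (median 95.3). Its log2 fold change was 1.69 (SE 0.48, edgeR adjusted p = 0.0276), and the groups did not overlap. Dab2, the adaptor that links the receptors to clathrin, rose by 1.32 (SE 0.34) on the log2 scale. The zinc transporter genes Slc39a5 and Slc39a8 rose by 1.79 and 1.06, and Pdzk1, a scaffold of brush border transporters, by 1.77. The other receptor genes did not pass. Cubn, the cubilin receptor itself, was at 167, 88.4 and 85.3 CPM against 6.00 to 95.7 CPM, and its log2 fold change of 1.48 had an edgeR adjusted p of 0.0902.

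The other 5 were genes of the secretory role groups. They were Fga and Fgg, which encode 2 of the fibrinogen chains, F2, which encodes prothrombin, Mttp, which loads lipid onto apolipoprotein B, and Spink1, a trypsin inhibitor. Their log2 fold changes lay between 1.52 for Fga and 1.83 for F2. Spink1 was at 1001, 1037 and 2184 CPM in Commd10Null and at 123 to 1218 CPM (median 339) in WT libraries, so its groups overlapped. Afp and Ttr, the carriers most used as markers of this epithelium, did not pass. Afp, the fetal relative of albumin, was at 177, 137 and 243 CPM against 21.7 to 210.1 CPM (median 127), a log2 fold change of 0.60 (SE 0.48, edgeR adjusted p = 0.426). Ttr, which carries thyroid hormone, was at 1296, 894 and 1134 CPM against 102 to 933 CPM (median 483), a log2 fold change of 1.28 (SE 0.45, edgeR adjusted p = 0.0663). Of the 7 apolipoprotein and lipoprotein genes with counts, Mttp alone passed. Apoa2, of high density lipoprotein, had the smallest value of the members, 0.12 (SE 0.50).

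How many members passed at E8.5 depended on which libraries were in the fit. Without Commd10Null replicate 1 the count was 1, Foxa3, and without replicate 3 it was 3, Fgg, Dab2 and Pdzk1. Without WT replicate 6, the WT library highest in the members, it was 21. The direction was steadier than the count, since 31 of 32 members stayed above 0 without Commd10Null replicate 1 and 31 of 32 without replicate 3. The WT libraries themselves ranged 8.18-fold in their summed level, from 823 to 6735 CPM. Markers of some other tissues also differed between the genotypes, while the summed level of 9 gut endoderm genes overlapped, at 89.1 to 145 CPM in Commd10Null and 71.1 to 156 CPM in WT libraries. The summed level of 10 decidua and uterine NK genes was 56.5 to 289 CPM in Commd10Null and 7.91 to 53.8 CPM in WT E8.5 libraries, and that of 10 blood genes was 840 to 3189 against 26.5 to 526 CPM. Of the decidua and uterine NK genes, 6 were tested at E8.5 and 5 were DEGs higher, beside 3.22% of all genes. Ncr1, 1 of the uterine NK cell genes of that list, was at 0 in 31 of the 32 libraries. Of 18 trophoblast markers, summed at 38.7 to 69.1 against 8.42 to 30.6 CPM, 7 were at 0 in all 3 Commd10Null and 6 in all 10 WT libraries, Tpbpa in both. The part of these tissues in the result was not tested.

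**Figure D2:**
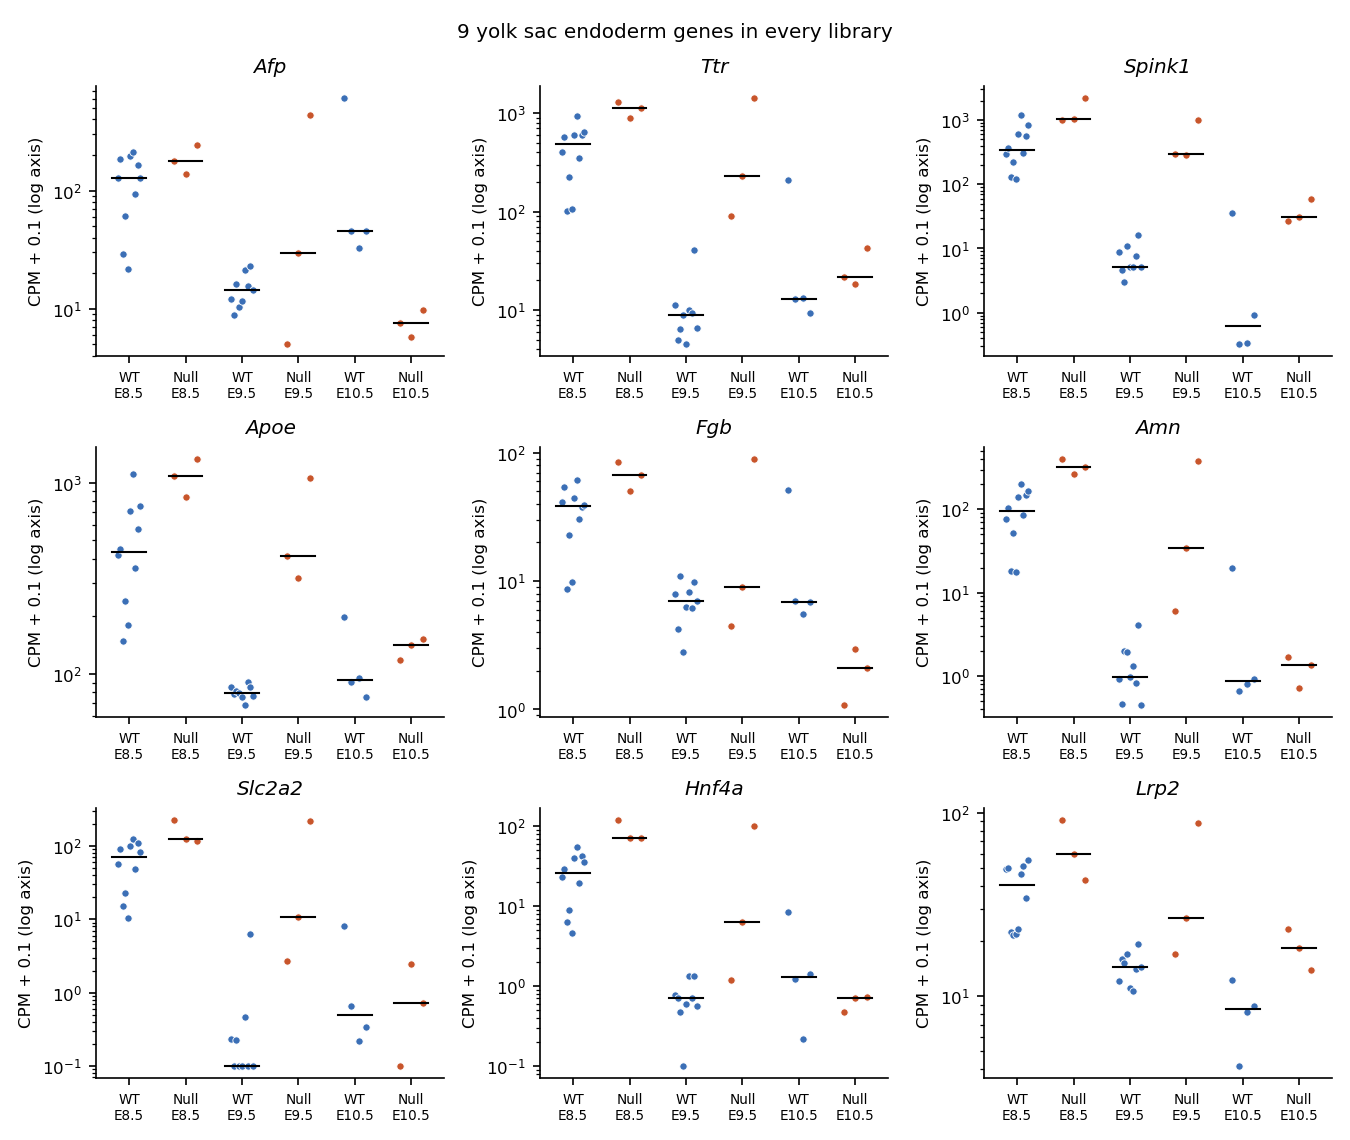
CPM + 0.1 (log axis) of 9 members in each library by group, with 1 point per library and a bar at the group median. Ttr, Spink1, Apoe and Amn in Commd10Null E9.5 libraries lie above every WT E9.5 library, and Afp does not, since its lowest Commd10Null value is 4.92 CPM and its WT values run from 8.69 to 23.0 CPM.

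At E9.5 all 29 members tested were higher in Commd10Null embryos as DEGs, and 0 were lower. Over all 13483 genes tested, 9.35% were DEGs higher and 7.67% DEGs lower. Of the 29, 10 passed the filter on low counts only through the Commd10Null libraries, so a difference was built into them and their folds and p are a description. They were Apoa4, Apob, Fga, Fgg, Cubn, Slc2a2, Slc39a5, Vil1, Pdzk1 and Hnf4a. The other 19 also passed the filter in WT libraries alone, all 19 were DEGs higher, and their median log2 fold change was 3.38 (range 1.33 to 6.76), against 5.48 over the 29. Spp2, F2, Cer1 and Apoc2 were not tested. In 16 members the 3 Commd10Null libraries lay above all 9 WT libraries, beside 10% of all genes tested, and in the other 17 of the 33 the groups overlapped or, for Apoc2, held no count.

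Among the receptor genes, Amn and Cubn were nearly silent in WT embryos at this stage. Amn was at 0.346 to 3.97 CPM (median 0.862) in WT and at 5.88, 34.3 and 383 CPM in Commd10Null libraries. All 3 lay above the WT range, and the log2 fold change was 6.76 (SE 0.79, edgeR adjusted p = 1.38e-05), or 3.93 without replicate 3. Cubn was at 0 to 2.73 CPM in WT and at 2.05, 9.84 and 155 CPM in Commd10Null libraries, and replicate 1 lay inside the WT range. It is among the 10 with a built-in difference, and its log2 fold change was 6.33 (SE 0.85), or 3.09 without replicate 3. Folr1, a folate receptor gene, rose by 4.43 (SE 0.59) on the log2 scale and Dab2 by 3.07 (SE 0.41), and without replicate 3 the values were 1.76 and 1.42. Lrp2, the megalin receptor, which the embryonic neural epithelium also expresses, was at 10.6 to 19.2 CPM in WT and at 16.8, 26.7 and 87.9 CPM in Commd10Null libraries. Its log2 fold change of 1.65 (SE 0.33, edgeR adjusted p = 0.00116) fell to 0.63 without replicate 3.

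The secreted carriers rose as well, and Spink1 did so most evenly. Spink1 was at 293, 284 and 1014 CPM in Commd10Null and at 2.86 to 16.0 CPM (median 5.13) in WT libraries, a log2 fold change of 6.22 (SE 0.40, edgeR adjusted p = 4.94e-08), and of 5.34 without replicate 3. Ttr was at 90.0, 229.7 and 1411 CPM against 4.43 to 40.7 CPM (median 8.91), a log2 fold change of 5.70 (SE 0.65, edgeR adjusted p = 1.06e-05), and of 3.84 without replicate 3. In both genes every Commd10Null library lay above the WT range. Afp was at 4.92, 29.7 and 436 CPM against 8.69 to 23.0 CPM (median 14.3). Replicate 1 was below the WT range and the other two were above it, and the log2 fold change of 3.45 (SE 0.67, edgeR adjusted p = 0.000994) was 0.26 without replicate 3, with an edgeR adjusted p of 0.668. Trf, the iron carrier transferrin, likewise lost its call, from 2.92 to 0.74.

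The 6 apolipoprotein genes tested and Mttp all passed. Apoe, a ligand of lipoprotein receptors that many other cells make, was at 412, 319 and 1053 CPM against 68.6 to 90.0 CPM (median 78.9), with no overlap. Its log2 fold change of 2.93 had the smallest error of the members (SE 0.22, edgeR adjusted p = 2.35e-07), and it was 2.21 without replicate 3. Apoa1, the main protein of high density lipoprotein, was at 18.6, 74.9 and 614 CPM against 0.965 to 15.3 CPM, and Apom, a lipid carrier of the same particles, at 18.3, 60.3 and 515 CPM against 0.603 to 11.7 CPM. Their log2 fold changes were 6.07 (SE 0.77) and 6.19 (SE 0.75), or 3.72 and 3.85 without replicate 3. Apob, the core protein of larger lipoproteins and among the 10 with a built-in difference, had a log2 fold change of 5.94 (SE 0.97), or 2.93 without replicate 3, and its lowest Commd10Null value, 3.83 CPM, was below the highest WT value, 4.96 CPM in replicate 8.

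Of the coagulation genes, Fga, Fgb and Fgg lost their calls without replicate 3. Fgb, the third fibrinogen chain, was at 4.37, 8.95 and 88.8 CPM in Commd10Null and at 2.69 to 10.9 CPM (median 6.92) in WT libraries, so replicate 3 alone lay outside the WT range. Its log2 fold change of 2.32 (SE 0.57, edgeR adjusted p = 0.00482) became -0.04 without that library. Fga went from 5.48 to 1.47 and Fgg from 5.12 to 0.98, both with a difference built in by the filter, and neither passed without it (edgeR adjusted p = 0.273 and 0.347). F10, the coagulation factor X gene, kept a value of 1.66.

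Transporter genes and transcription factors followed the receptors. Slc2a2, the glucose transporter GLUT2, had 0 counts in 5 of 9 WT libraries, a highest WT value of 6.20 CPM in replicate 8, and 2.60, 10.48 and 218 CPM in Commd10Null libraries, for a log2 fold change of 6.67 (SE 1.10). It was 9.71 without WT replicate 8 and 3.10 without Commd10Null replicate 3. Pdzk1 had a value of 6.63 and Vil1, the microvillus protein villin, of 5.73, both without overlap, and of 3.75 and 3.81 without replicate 3. The difference in these 3 genes was built in by the filter. Slc39a8 had the smallest change of the 29, 1.33, and was at 0.45 without replicate 3. Rhox5, an X-linked homeobox gene of extraembryonic tissue, was at 19.7, 63.3 and 584 CPM against 2.85 to 9.18 CPM (median 3.81), a log2 fold change of 5.49 (SE 0.61, edgeR adjusted p = 8.91e-06), or 3.06 without replicate 3. Hnf4a, again with a built-in difference, had a log2 fold change of 5.82 (SE 0.81), or 2.53 without replicate 3, and overlapped in replicate 1, at 1.09 CPM against a WT range of 0 to 1.24 CPM. Foxa3 rose by 3.01 (SE 0.38), or 2.52 without replicate 3, and its Commd10Null values of 13.0, 4.22 and 18.7 CPM all lay above the WT range of 0.738 to 2.69 CPM.

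Without Commd10Null replicate 3, 22 members were DEGs, all higher. The 7 that were lost were Afp, Trf, Fga, Fgb, Fgg, Lrp2 and Slc39a8, and the median log2 fold change of the 29 was 2.53. Leaving out WT replicate 8 as well, an alternative chosen after seeing the data, left 27 of the 29 in the test, of which 21 passed, with a median of 2.71. Slc2a2, whose WT counts came mostly from replicate 8, then had a log2 fold change of 6.14.

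**Figure D3:**
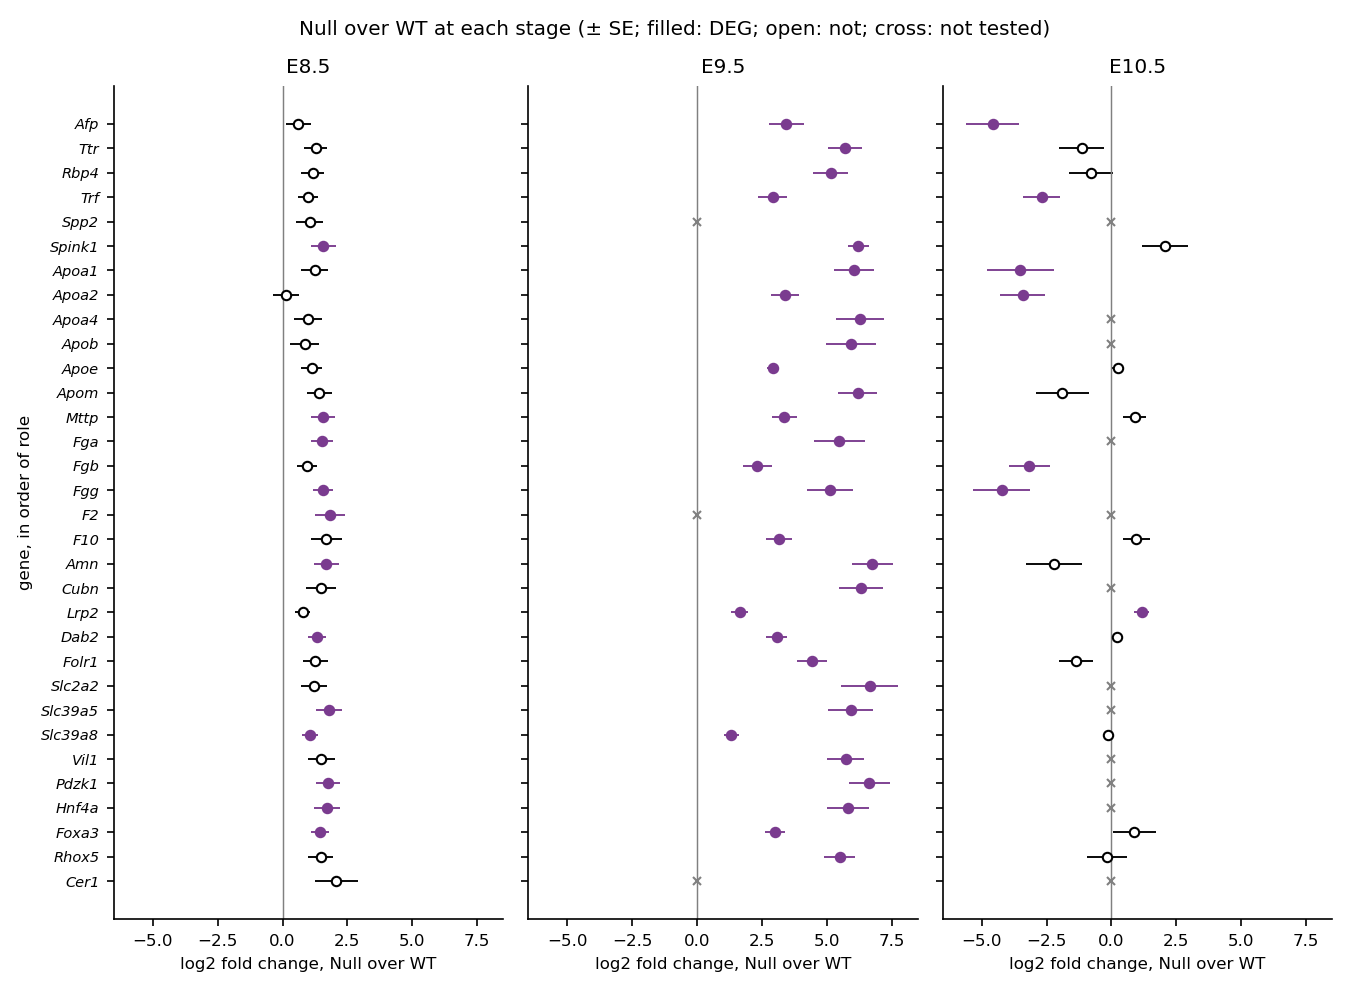
Log2 fold change of Commd10Null over WT (x axis, ± SE from edgeR) for 32 members (y axis, in order of role) at each stage. Filled points are DEGs, open points are not, and crosses mark members that were not tested and have no value. All 29 filled points of E9.5 lie to the right of 0, and at E10.5 the 6 lower DEGs stand beside 1 higher DEG, Lrp2.

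The Commd10Null E9.5 libraries differed from one another in these genes more than in most. The SD of log2 CPM over the 3 libraries had a median of 2.50 over 32 members (range 0.907 to 3.59) and of 0.53 over all 15057 genes, and 1.07% of genes lay above the members' median. The same median over members was 0.39 in Commd10Null E8.5, 0.67 in Commd10Null E10.5, 1.19 in WT E8.5, 0.74 in WT E9.5 and 1.87 in WT E10.5 libraries. The share of genes above it was 0.246% in WT E10.5, 5.26% in WT E9.5 and 5.91% in WT E8.5 libraries. In Commd10Null libraries that share was 16.3% at E10.5 and 40.8% at E8.5. The Commd10Null E9.5 median rested on replicate 3, since it was 1.10 without that library. Without replicate 2 it was 3.43.

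Replicate 3 was the highest of the 3 libraries in 31 of 33 members. It also had the highest share of mitochondrial counts, 3.65% against 1.90 and 1.77% in replicates 1 and 2 and 3.29 to 4.22% in WT E9.5 libraries. The part of this share in the members' levels was not tested. Of 27 members with more than 3 counts in each library, 96.3% were at least 2-fold higher in replicate 3 than in replicate 1, beside 18.1% of 12439 genes. The median ratio of replicate 3 to replicate 1 was 22.7 over these members and 1.00 over these genes. The ratio was not the same for all members. It was 91.8 for Hnf4a, 88.6 for Afp, 83.9 for Slc2a2, 75.8 for Cubn and 65.2 for Amn. It was 15.7 for Ttr, 3.46 for Spink1, 2.55 for Apoe and 1.44 for Foxa3. Cer1, which encodes a secreted antagonist of Nodal, BMP and Wnt signals made by the anterior visceral endoderm, ran the other way, with 17.5 CPM in replicate 1, 0.895 CPM in replicate 2 and 0 counts in replicate 3, against 0 to 1.12 CPM in WT libraries.

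**Figure D4:**
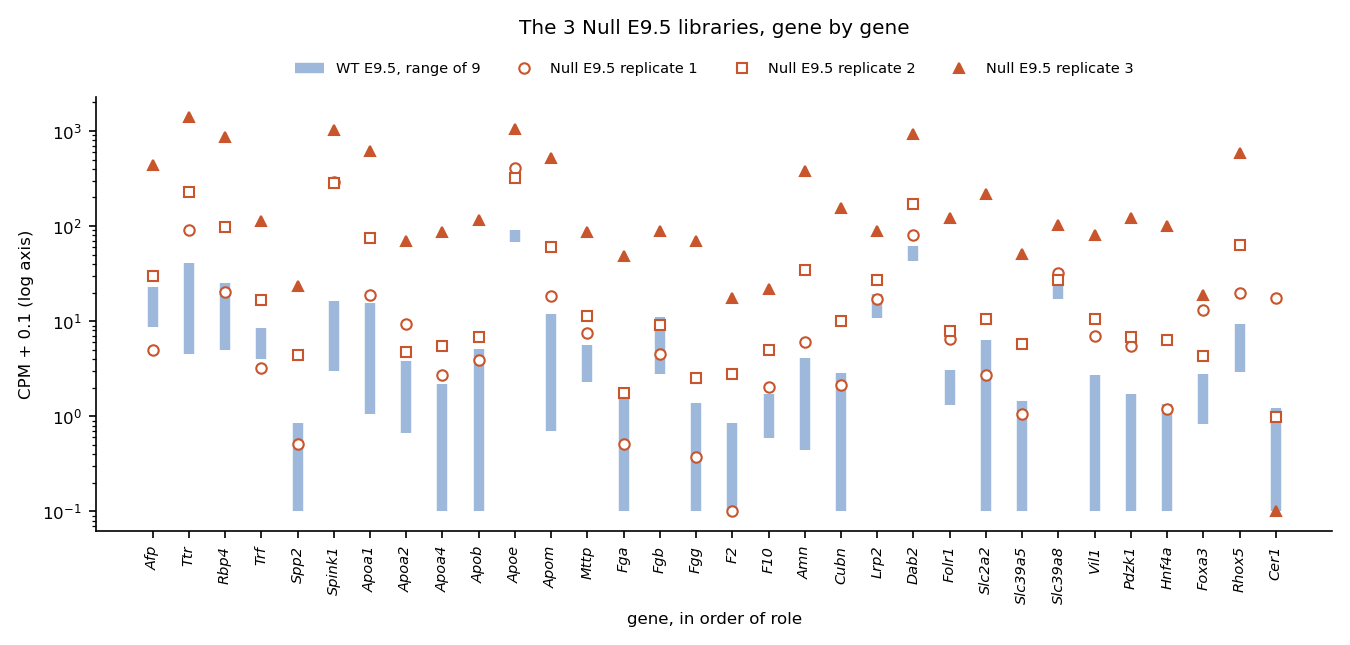
CPM + 0.1 (log axis) of 32 members (x axis, in order of role) in each of the 3 Commd10Null E9.5 libraries, with the range of the 9 WT E9.5 libraries as a bar. Replicate 3 is the highest point for every member shown except Cer1, and among members with more than 3 counts in each library the gap to replicate 1 runs from 1.44-fold for Foxa3 to 91.8-fold for Hnf4a.

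Markers of other tissues also differed between these 3 libraries. The summed level of 18 trophoblast and placenta genes was 11.3, 93.4 and 424 CPM in replicates 1, 2 and 3, against 4.20 to 10.2 CPM in WT E9.5 libraries, and 4 of the 18 were at 0 in all 3 Commd10Null and 7 in all 9 WT libraries. That of 12 parietal endoderm genes was 1237, 1572 and 2835 CPM, against 674 to 873 CPM. That of 10 decidua and uterine NK genes was 10.8, 149.9 and 11.1 CPM, with its highest value in replicate 2. The 9 gut endoderm genes summed to 130.4 to 174 CPM in the 3 libraries, a 1.33-fold range, and to 56.8 to 77.7 CPM in WT libraries. Single genes of that list moved apart, since Cdx2 was at 60.8, 56.8 and 43.7 CPM and Cldn4 at 31.7, 27.0 and 56.2 CPM in replicates 1, 2 and 3, while Shh, chosen after its values were seen, was at 24.2, 17.3 and 3.74 CPM. The part of these tissues in the members' levels was not tested.

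At E10.5 the members no longer moved together. Of 20 members tested, 6 were DEGs lower in Commd10Null embryos and 1 was higher, beside 8.44% of DEGs lower and 6.88% higher over all 13522 genes. In 8 of the 33 members every Commd10Null library lay below every WT library, beside 23.5% of all genes tested, and in 1, Lrp2, every Commd10Null library lay above, beside 22.1%. The 8 lay near the share over all genes. In all, 13 members were not tested for want of counts, and Fga, F2 and Cer1 of the 8 were among them.

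WT replicate 1 stood apart from its group. It was above the other 3 WT E10.5 libraries in 31 of 33 members, beside 28.1% of all genes, with a median of 13.3 times the median of the other 3. The summed level of 7 further genes of the yolk sac endoderm surface was 76.9 CPM in this library and 1.69, 2.10 and 1.77 CPM in the others, and that of 12 parietal endoderm genes was 1010.1 CPM against 825, 893 and 782 CPM. That of 10 blood genes was lower in all 3 Commd10Null libraries, at 2329 to 3924 CPM against 15113 to 25566 CPM in WT libraries. The mitochondrial share was 1.64 to 1.78% in Commd10Null against 3.38 to 4.29% in WT libraries of E10.5. The part of these tissues and of this share in the members' levels was not tested. Afp was at 604, 45.3, 32.7 and 44.9 CPM in WT and at 7.49, 5.69 and 9.56 CPM in Commd10Null libraries. The groups did not overlap, and the log2 fold change was -4.57 (SE 1.01, edgeR adjusted p = 0.00225) with replicate 1 and -2.44 without it, where it still passed. Trf, Apoa2, Fgb and Fgg were lower with it, by -2.69, -3.42, -3.16 and -4.24, and without it, by -1.27, -1.70, -1.71 and -2.55. Apoa1 went from -3.52 (SE 1.29, edgeR adjusted p = 0.0399) to -0.31 and lost its call. Fgb, Fgg and Apoa1 were too low in Commd10Null libraries to pass the filter there and passed it through the WT libraries. A difference was built into them, and their folds and p are a description.

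Other members were higher in Commd10Null libraries as soon as that library was left out. Spink1 was at 35.1, 0.225, 0.233 and 0.827 CPM in WT and at 27.1, 30.4 and 59.2 CPM in Commd10Null libraries. With replicate 1 the log2 fold change was 2.07 (SE 0.89, edgeR adjusted p = 0.0765), and without it 6.46 (edgeR adjusted p = 2.28e-08). Spink1 passed the filter at E10.5 only through the Commd10Null libraries, so these values are a description. Amn and Foxa3 passed it in neither genotype alone, but with WT replicate 1 and Commd10Null libraries together. Ttr was at 210, 12.8, 13.2 and 9.34 CPM against 21.4, 18.2 and 43.0 CPM, and went from -1.15 to 1.21 (edgeR adjusted p = 0.00257 without it). Rbp4, the retinol carrier, went from -0.78 to 1.37 and Rhox5 from -0.17 to 1.94, and both passed without it. In all, 7 of 18 members tested were DEGs higher and 5 lower without this library, beside 6.98% and 7.87% of all genes in the same fit. Lrp2 was higher either way, at 1.16 (SE 0.28, edgeR adjusted p = 0.004) with that library. It was under the fold minimum without Commd10Null replicate 1 or WT replicate 2, and 0 members were then higher.

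Members too low for the test were read from their counts. Fga, F2 and Cer1 had 0 counts in the 3 Commd10Null E10.5 libraries, against 208, 74 and 13 counts in the 4 WT libraries. With a floor of 3 counts over the group this put them at least 47.4-fold, 16.9-fold and 2.96-fold lower. Cubn had 3 counts against 88, a ratio of 20.0 (95% counting interval 6.64 to 99.1). WT replicate 1 held 202 of the Fga, 63 of the F2, 81 of the Cubn and 8 of the Cer1 counts. Without it the bounds were at least 1.87-fold for Fga, 3.42-fold for F2 and 1.56-fold for Cer1, and the Cubn ratio was 2.18 (95% counting interval 0.497 to 13.0). These bounds cover counting error only.

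In WT embryos the members fell between E8.5 and E9.5. All 30 tested were DEGs lower at E9.5, beside 5.09% of 12718 genes, with a median log2 fold change of -4.58, and in 20 every E9.5 library lay below every E8.5 library, beside 5.59% of genes. Amn fell by 6.26 (SE 0.51) on the log2 scale, Slc2a2 by 6.43 (SE 0.69), Spink1 by 6.04 (SE 0.46) and Apoa1 by 6.06 (SE 0.56). Of the 30, Afp, Ttr, Rbp4, Trf, Spink1, Apoe, Mttp, Fgb, Lrp2, Dab2, Folr1, Slc39a8 and Rhox5 passed the filter in WT E9.5 libraries alone. All others, Amn, Slc2a2, Apoa1, Apob, Cubn and Hnf4a among them, were too low there and passed it only with the E8.5 libraries. A difference was built into these others, which are most of the 30. Their folds and p, and the median of -4.58 over the 30, are a description. The smallest changes were those of Slc39a8, -1.07 (SE 0.22), and Lrp2, -1.41 (SE 0.20). Without WT E9.5 replicate 8 all 30 still passed, and Slc2a2, which had few counts in the other E9.5 libraries, went to -9.48. Between E9.5 and E10.5, 10 of 20 members tested were DEGs higher, beside 3.97% of genes, and 0 were lower. With edgeR 1 member, Lrp2, was lower at an unadjusted p under 0.05, and it also passed the adjusted threshold but not the fold minimum. DESeq2 also called 0 lower. The counts were 3 higher and 3 lower without WT E10.5 replicate 1. Those 3 higher were Afp, at 1.47, Apoa2, at 1.02, and Fgg, at 1.51, and those lower were Spink1, at -4.05, Foxa3, at -1.92, and Lrp2, at -1.04. Fgg passed the filter only through the E10.5 libraries, with and without replicate 1. Without replicate 1, Spink1 and Foxa3 passed it only through the E9.5 libraries. A difference was built into these members, and their folds and calls are a description. These comparisons share WT libraries with those between genotypes and are not independent of them.

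The ratio of Afp to Ttr counts, a pair chosen after their values were seen and from several ratios computed, did not overlap between the genotypes at E9.5 or at E10.5. That of Rbp4 to Ttr did not overlap at E9.5 either, at 0.222 to 0.609 in Commd10Null and 0.613 to 1.5 in WT libraries. At E10.5 it did. Ratios of Apoa1, Amn, Apoe and Spink1 to Ttr overlapped at E9.5. At E10.5 those of Apoa1 and Spink1 did not, Spink1 with 2 WT libraries only. WT libraries of E8.5 had ratios of 0.198 to 0.326, with a median of 0.272. Those of E9.5 had ratios of 0.564 to 2.61, with a median of 1.80, and those of E10.5 had 2.88, 3.53, 2.48 and 4.81. The Commd10Null libraries had 0.136, 0.153 and 0.214 at E8.5. They had 0.0546, 0.129 and 0.309 at E9.5 and ended with 0.351, 0.313 and 0.222. WT E10.5 replicate 1, which had 13.3 times the level of its group in the median member, lay within its group in this ratio, at 2.88. Commd10Null E9.5 replicate 3, at 0.309, lay within the WT E8.5 range. Afp, Ttr and the fibrinogen genes are also genes of the fetal liver, whose marker Alb was at 11.3, 5.07, 2.80 and 3.90 CPM in WT E10.5 libraries and had 0 counts in all 9 Commd10Null libraries. In WT libraries Alb reached only 0.383 CPM at E8.5 and 1.49 CPM at E9.5. Its list of 5 liver bud genes, led by Dlk1 and Tbx3, summed to 492 to 732 CPM in Commd10Null and 591 to 748 CPM in WT E10.5 libraries. At E10.5, 1 of the 5 was a DEG higher and 1 a DEG lower, beside 6.88% and 8.44% of all genes. The part of the liver in these values was not tested.

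**Figure D5:**
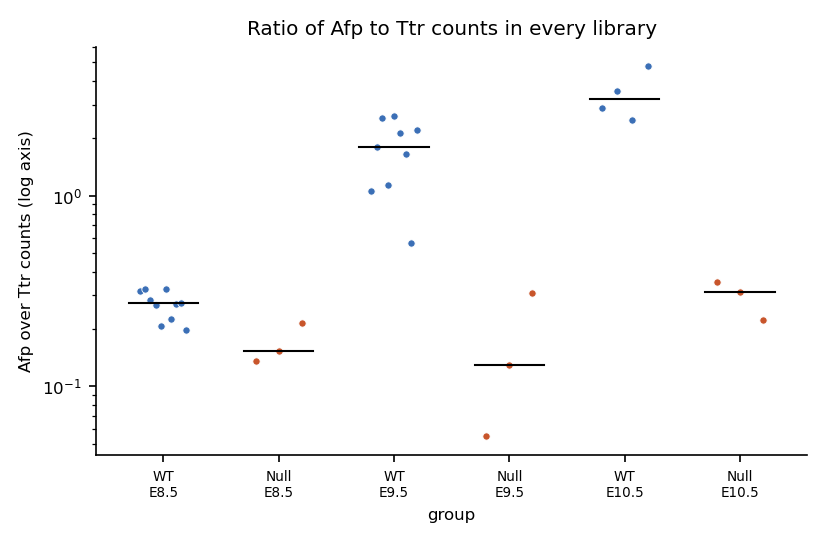
Ratio of Afp to Ttr counts (log axis) in each library by genotype and stage, with 1 point per library and a bar at the group median. WT libraries lie at 0.198 to 0.326 at E8.5 and at 2.48 to 4.81 at E10.5, and the 9 Commd10Null libraries lie between 0.0546 and 0.351 at all stages.

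Whether the genotype difference itself changed with stage was tested as an interaction over all 32 libraries. From E8.5 to E9.5 it grew in 19 of 32 members and shrank in 0, beside 6.24% of 15057 genes in which it grew and 4.9% in which it shrank. The apolipoproteins held 6 of the 19, the transporters 4, and carriers and receptors 3 each. For Slc2a2 the difference grew by 5.40 (SE 1.41, edgeR adjusted p = 0.0114), for Spink1 by 4.61 (SE 1.03, edgeR adjusted p = 0.00362) and for Apoe by 1.76 (SE 0.55, edgeR adjusted p = 0.034). Of the 19, Apoa4, Apob, Fgg, Cubn, Slc2a2, Slc39a5, Vil1, Pdzk1 and Hnf4a were too low in WT E9.5 libraries to pass the filter there. They passed it here through groups in which they were high, so their values and p are a description. The count was 1, Spink1, without Commd10Null E9.5 replicate 3, beside 7.37% of genes in the same fit. It was 8 without Commd10Null E8.5 replicate 3, beside 3.72%, and 11 without Commd10Null E8.5 replicate 2, beside 5.64%. From E8.5 to E10.5 it shrank or turned in 10 of 32 members, Afp by -5.19 (SE 1.26, edgeR adjusted p = 0.0038) among them, beside 8.29% of genes, and grew in 0, beside 10.3%. Of these 10, 4 were coagulation genes. With WT E10.5 replicate 1 left out it shrank or turned in 1, Afp, beside 6.92% of genes, and grew in 1, Spink1, beside 8.8%. With Commd10Null E9.5 replicate 3 left out it shrank or turned in 17, beside 9.57%.

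The members do not lie together in the genome, apart from 3 groups of neighbours. Fga, Fgb and Fgg lie side by side on chromosome 3 of GRCm38, with Fgg from 83007724 to 83015049, Fga from 83026076 to 83033627 and Fgb from 83040141 to 83049863, and Apoa1 (46228580 to 46230466) and Apoa4 (46240696 to 46243459) are neighbours on chromosome 9. Apoe, from 19696109 to 19699188, lies near Apoc2 on chromosome 7. Since the members moved together, their promoters were searched for short motifs of the factors that drive endoderm genes. RefSeq promoters of GRCm38.p6, 300 bases from 250 before to 50 after the start site, were at hand for 29 of 33 members, as 38 promoters of 32851 in all. On either strand, the HNF1 motif was found in 1 of 38 and in 0.399% of all promoters, the HNF4A motif CAAAGTCCA in 1 of 38 and in 0.475%, its form CAAAGGTCA in 0 of 38 and in 0.478%, the FOXA motif TGTTTAC in 3 of 38 and in 3.65%, and the GATA motif AGATAAG in 2 of 38 and in 3.04%. The RefSeq start sites used for Pdzk1, Slc39a8 and Apoe lie inside the genes as GENCODE draws them, not at their ends. No window shown holds more than 1 of these motifs, and a match is a run of letters, not a bound site. The windows of 30 bases below show the matches in capitals, written 5′ to 3′ on the strand of the gene, so that a match on the other strand appears as its reverse complement. Those of Afp, which carries the HNF1 letters 105 bases before its RefSeq start site, and of Pdzk1, which carries HNF4A letters 14 bases after one, are shown because Afp kept apart from Ttr while Pdzk1 was among the most changed members at E9.5, and the others because they are the FOXA and GATA matches of members described above.
Afp (chr5:90490599-90490628, plus strand, HNF1): cccctgctctGTTAATTATTggcaaattgc
Pdzk1 (chr3:96830069-96830098, plus strand, HNF4A): aatctttgtcCAAAGTCCAgtgagttccaa
Apoa2 (chr1:171224966-171224995, plus strand, FOXA): tgtctaaccctTGTTTACtccagcctgatc
Rbp4 (chr19:38125542-38125571, minus strand, FOXA, reverse complement): aaatgcatgGTAAACActtggcaattatgt
Apoe (chr7:19698385-19698414, minus strand, FOXA, reverse complement): ggcaaggggagGTAAACAgacctttgggaa
Dab2 (chr15:6299791-6299820, plus strand, GATA, reverse complement): attctctttggCTTATCTgctgtgcatttt
Slc39a8 (chr3:135825615-135825644, plus strand, GATA, reverse complement): tccctccccttCTTATCTctaaagggtgca
No relation between these letters and the levels was tested, and most members carry none of them in this window.

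Across all 32 libraries the members shared 1 profile. Each member's log2 CPM followed the mean profile of the 32 members with counts, in which it takes part, with a Pearson r of 0.606 to 0.988 (median 0.964). The lowest was that of Cer1, at 0.606, and the next were F10, at 0.803, and Apoa2, at 0.849. The 15 genes outside the set with the profile most like the members' had an r of 0.970 to 0.988 among 15025 genes compared. Among them were Fmr1nb, Slc23a1, Car7, Creb3l3, Ctsh, Pla2g12b, 2610528J11Rik, Smlr1, Cldn2, 2210011C24Rik, Tmem150a, Soat2, Lgals2 and Gipc2, of which Soat2 belongs to the list of further surface genes below. Slc23a1 transports vitamin C, Creb3l3 is a transcription factor of liver and gut, Ctsh is a lysosomal protease and Cldn2 a tight junction protein. Car7 was at 324 CPM in Commd10Null E8.5 replicate 1, and Creb3l3 at 82.4 CPM in Commd10Null E9.5 replicate 3. The libraries share groups and stages, so these correlations describe 1 common pattern and were not tested.

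Lists of related tissues were read beside the members. Of all genes tested, DEGs higher made up 3.22% at E8.5, 9.35% at E9.5 and, at E10.5, 6.88%. Of 7 further genes of the yolk sac endoderm surface, 3 were tested at E9.5 and 3 were DEGs higher, with a median log2 fold change of 6.46, and 2 of 6 tested were higher at E8.5. The list includes S100g, a calcium carrier. Of 13 further secreted genes, led by Apoc1 and Ambp, 0 of 6 tested passed at E8.5 and 3 of 5 at E9.5. The 11 endoderm regulators that the embryo and the yolk sac share, led by Gata6 and Foxa2, were higher in Commd10Null embryos at E10.5, where most members tested were not. They had 2 DEGs higher of 11 tested at E8.5, 8 of 9 at E9.5 and 9 of 9 at E10.5, and summed to 333 to 399 CPM in Commd10Null and 91.1 to 123 CPM in WT E10.5 libraries. Gut endoderm genes, led by Cdx2 and Cldn4, had 0 of 8 tested higher at E8.5, 3 of 8 higher and 1 lower at E9.5, and 6 of 8 higher at E10.5.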

How the data were processed

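RNA of whole embryos was made into QuantSeq 3′ mRNA-Seq FWD libraries. The authors deposited 1 table of raw counts of 3′ tags per Ensembl gene for 32 libraries. Reads had been trimmed (BBDuk in the study's methods, Trimmomatic 0.35 in the submitters' processing notes) and aligned with STAR to coding regions of mm10. The sources used here name neither the tool that counted the tags nor its treatment of strand nor the annotation version, so tags of overlapping genes cannot be told apart. The number of value columns without a sample was 0. Libraries were grouped by genotype and stage from the labels.

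Each comparison was fitted on its own groups with the quasi-likelihood test of edgeR 4.0.16 (R 4.3.3, limma 3.58.1), with TMM factors, the filterByExpr defaults (about 10 counts in a library of median size and 15 in total) and Benjamini-Hochberg adjustment over all genes tested. DEGs had an adjusted p of at most 0.05 and moved by 1 or more on the log2 scale. The genotype by stage test used all 32 libraries and the adjusted p alone. SE is the log2 fold change divided by the square root of F. CPM use TMM factors over 32 libraries, and log2 CPM a prior count of 2. Bounds against 0 counts take 3 counts over the whole group as the floor, and counting intervals are exact at 95%. Scripts were tested on simulated data, and sequences and positions come from RefSeq (GRCm38.p6) and GENCODE M21 (GRCm38).

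The members and lists were chosen with earlier results of these data known. All 33 members could be named, and of each other list the 2 genes with the highest mean CPM, except for 1 gene that is not reported here by name. List genes named for being at 0, Alb, and the Afp to Ttr ratio were chosen after their values were seen. Genes most like the members are the 15 others with the highest Pearson r of log2 CPM with the members' mean z score. Alternatives were DESeq2 1.42.0, RLE size factors, library sizes without factors, the most abundant identifier left out, a prior count of 0.5, no filter, at least 50 counts in 3 libraries, no minimum fold change, 1 model of all libraries, a replicate block, and each library left out in turn. Of 96 pairs of libraries within a group, none agreed within sampling noise (chi-square per gene 3.00 to 81.6).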

Additional observations from a re-analysis of the deposited data

Results flagged for a closer look

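Within a group of 4 to 10 libraries, a library was marked where its gap to the nearest other passed Dixon's 95% critical value, which chance passes in about 1 of 20 groups. Of 32 members with a count, 14 were marked in WT E9.5, always for replicate 8, 26 in WT E10.5, always for replicate 1, and 0 in WT E8.5.

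WT E9.5 replicate 8 stood above its group in the summed level of the members, at 390.4 CPM. Its carriers Ttr and Rbp4 were at 40.7 and 24.9 CPM. Of its lipoprotein and coagulation genes, Apoa1 was at 15.3, Apoa4 at 2.11, Apob at 4.96, Apom at 11.7 and Fga at 1.86 CPM. Of its receptor genes, Amn was at 3.97, Cubn at 2.73 and Dab2 at 60.9 CPM, and of its transporter genes, Slc2a2 was at 6.20, Slc39a5 at 1.36, Vil1 at 2.61 and Pdzk1 at 1.61 CPM.

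WT E10.5 replicate 1 was at 1824 CPM in the summed level. Its carriers were at 604 CPM for Afp, 209.7 for Ttr, 107 for Rbp4, 82.0 for Trf, 20.9 for Spp2 and 35.1 for Spink1. Its lipoprotein genes were at 100.05 CPM for Apoa1, 56.7 for Apoa2, 28.5 for Apoa4, 3.06 for Apob, 198 for Apoe and 49.4 for Apom. Its coagulation genes were at 21.3 CPM for Fga, 51.1 for Fgb, 19.9 for Fgg, 6.65 for F2 and 4.75 for F10. Its receptor and transporter genes were at 19.7 CPM for Amn, 8.55 for Cubn, 7.92 for Slc2a2, 6.23 for Slc39a5, 4.33 for Vil1 and 8.13 for Pdzk1, and its transcription factors at 8.34 for Hnf4a, 4.33 for Foxa3 and 44.5 for Rhox5.

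The genotype difference was larger at E9.5 than at E8.5 in 19 members by the edgeR interaction test. On the log2 scale it grew by 4.38 for Ttr, 3.94 for Rbp4 and 4.61 for Spink1. It grew by 4.78 for Apoa1, 3.21 for Apoa2, 5.28 for Apoa4, 5.03 for Apob, 1.76 for Apoe, 4.73 for Apom and 3.52 for Fgg. It grew by 5.02 for Amn, 4.80 for Cubn, 3.12 for Folr1, 5.40 for Slc2a2, 4.10 for Slc39a5, 4.18 for Vil1, 4.82 for Pdzk1, 4.06 for Hnf4a and 3.98 for Rhox5. Of these members, Apoa4, Apob, Fgg, Cubn, Slc2a2, Slc39a5, Vil1, Pdzk1 and Hnf4a were too low in WT E9.5 libraries for the filter. Their values are a description.

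The genotype difference was smaller, or turned, at E10.5 against E8.5 in 10 members, by -5.19 for Afp, -3.69 for Trf, -5.71 for Spp2, -4.78 for Apoa1, -3.56 for Apoa2, -6.30 for Apoa4, -4.12 for Fgb and -5.81 for Fgg. The fitted values of -10.01 for Fga and -8.86 for F2 rest on 0 counts in Commd10Null E10.5 libraries and are no bounds. Spp2 and Apoa4 had 5 and 4 counts in those libraries. WT replicate 1 held 198 of the 208 Spp2 and all 270 Apoa4 counts of WT E10.5, so their values rest on 1 library. Apoa1, Fgb and Fgg were too low in Commd10Null E10.5 libraries to pass the filter there, and their values are a description. Without WT E10.5 replicate 1, of the 10 Afp alone passed.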

How the results depend on the processing

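Of the values of single members under the alternatives, 570 of 672 at E8.5, 559 of 591 at E9.5 and 260 of 288 at E10.5 kept their direction and their side of the threshold, as did 806 of 810 for WT E9.5 against E8.5 and 370 of 431 for WT E10.5 against E9.5. The cause of the changes below was not tested.

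Members higher at E8.5 numbered 12, and 19 without a filter on low counts, 6 with all 32 libraries in 1 model, and 1 to 21 with 1 library left out. At E9.5 they numbered 29, and 16 with at least 50 counts in 3 libraries, where 16 were tested, and 22 to 31 with 1 library left out. At E10.5, 1 was higher, and 2 without a filter and 0 to 7 with 1 library left out, while 6 were lower, and 3 with DESeq2, 17 without a filter, 3 with the strict filter and 4 to 6 with 1 library left out. From WT E9.5 to E10.5, 10 were higher, and 3 with DESeq2, 19 without a filter, 5 with the strict filter, 6 in the model of all libraries and 3 to 13 with 1 library left out, while 0 were lower, and 1 with no minimum fold change and 0 to 3 with 1 library left out. From WT E8.5 to E9.5, 30 were lower, and 32 with DESeq2, 32 without a filter and 29 to 31 with 1 library left out. The growth of the genotype difference at E9.5 held for 19 members, and for 1 to 25 with 1 library left out, and its change at E10.5 for 10, and for 2 to 17 (1 of the 2 larger, without WT E10.5 replicate 1). The spread among Commd10Null E9.5 libraries was 2.50, and 1.10 to 3.43.

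The labels do not say whether the replicate numbers pair the samples, and the correlations do not settle it. Same-numbered libraries correlated at -0.0657 to 0.111 in their deviations over 9 pairs, 2 over 0.1, and 5 of 9 Commd10Null libraries were closest to their own number. With the replicate block the members higher were 31 at E8.5, 15 at E9.5 and 2 at E10.5, the fall of the difference at E10.5 held for 17, and Rhox5 at E10.5 went to 0.41 and Spink1 from WT E9.5 to E10.5 to -0.98.

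Leaving out WT E10.5 replicate 1 and WT E9.5 replicate 8 together, chosen after seeing the data, gave 3 higher and 2 lower from WT E9.5 to E10.5, with Rbp4 at -0.044, Spink1 at -3.81, Fgb at -0.060, Amn at -0.50, Dab2 at -0.032, Folr1 at -0.17 and Rhox5 at -0.55.

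With 1 library left out, values that changed sign ran, at E8.5, from -0.48 to 0.40 for Apoa2 and -0.15 to 2.58 for Cer1, at E9.5 from -0.039 to 2.84 for Fgb, and at E10.5 from -1.63 to 1.21 for Ttr, -1.91 to 1.37 for Rbp4, -3.56 to 0.36 for Apom, -0.39 to 0.032 for Slc39a8 and -0.51 to 1.94 for Rhox5. From WT E9.5 to E10.5 they ran from -0.38 to 2.13 for Rbp4, -4.05 to 0.75 for Spink1, -0.29 to 3.70 for Apoa1, -0.13 to 1.63 for Fgb, -0.92 to 2.48 for Amn, -0.084 to 0.19 for Dab2, -0.22 to 0.89 for Folr1, -0.20 to 0.018 for Slc39a8, -1.92 to 0.22 for Foxa3 and -0.70 to 1.76 for Rhox5.

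At the depth of these libraries, 1 count is about 0.1 CPM, so members under about 1 CPM in WT E9.5 and in E10.5 libraries rest on a few tags each.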
